A study of Mus musculus with 26 samples.

Results

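The 10 genes *Acly*, *Acaca*, *Fasn*, *Scd1*, *Scd2*, *Elovl5*, *Elovl6*, *Fads1*, *Fads2*, and *Me1* encode the enzymes that make fatty acids from citrate and then lengthen and desaturate them. They were chosen by name, as enzymes of that pathway, and all 10 were found by symbol among the 52962 genes of the count table. All 10 were also among the 15402 genes that passed the filter on low counts and were tested. Their mRNA was followed in brown preadipocytes of newborn mice whose insulin receptor (IR) and IGF-1 receptor genes were both flanked by loxP sites. The cells had been immortalized with SV40 T antigen, so all groups carry it, and Cre recombinase delivered by adenovirus then removed both receptors to give the double knockout (DKO) line, for which GFP-positive cells were sorted. A retrovirus with a hygromycin marker was used to put human receptors of the B isoform back into DKO cells: the normal IR, the kinase-dead K1030R, ∆CT (lacking the last 79 amino acids of the C-terminus), and JMO, which keeps only 36 juxtamembrane amino acids of the intracellular part and so has neither a kinase domain nor a C-terminus. The paper describes these constructs as FLAG-tagged and the immortalized cells as selected with puromycin. It also lists an empty retroviral vector, and the labels do not say whether the DKO libraries carry it. Every line was starved of serum for 6 h, and the 4 receptor lines were harvested without insulin or after 100 nM insulin for 15 min, whereas DKO cells were harvested without insulin only. This gave 26 libraries in 9 groups, with 3 replicates in each group and 2 in ∆CT with insulin. There was a single line per receptor, so a receptor and the history of its line cannot be told apart. The labels and the paper's methods do not say how replicates of a line were made, and they are called dishes here. The p-values below therefore measure the spread between such replicates of a line only.

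Fatty acid synthesis in the cytosol starts from citrate, which ATP citrate lyase splits to give acetyl-CoA. Acetyl-CoA carboxylase turns acetyl-CoA into malonyl-CoA, fatty acid synthase joins these units into palmitate with NADPH as the reductant, and the elongases and desaturases of the endoplasmic reticulum then remodel palmitate and the fatty acids of the diet. In fat and liver, insulin is known to raise this program over hours through the transcription factor SREBP-1c, and brown fat makes fatty acids as well as burning them.

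*Acly* (chr11:100476353-100528000, minus strand), *Acaca* (chr11:84129672-84401651, plus), and *Fasn* (chr11:120805846-120824547, minus) lie apart on chromosome 11 of GRCm38. *Scd1* (chr19:44394455-44407879, minus) and *Scd2* (chr19:44293674-44306864, plus) are neighbours on chromosome 19 with 87.6 kb between them. *Fads1* (chr19:10182888-10196877, plus) and *Fads2* (chr19:10062765-10101746, minus) form a second cluster on that chromosome, 81.1 kb apart. *Elovl6* (chr3:129532355-129638495, plus), *Elovl5* (chr9:77917364-77984519, plus), and *Me1* (chr9:86581371-86695953, minus) complete the list. The annotation used for these positions is GENCODE M21, and all 10 are protein-coding genes. Where transcripts of 2 genes share sequence, reads can be split between them. Of the 31-base stretches in the *Acaca* transcripts, 33.4% also occur in another gene, mostly *Gm5182*, and the share was 30.0% for *Me1* (mostly *Gm7049*), 8.14% for *Scd1* and 6.81% for *Scd2* (mostly *Scd3*), 6.41% for *Elovl6* (mostly *Gm11295*), and 0.729% for *Fads2* (*Fads3*). *Acly*, *Fasn*, *Elovl5*, and *Fads1* shared none.

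Library totals ran from 17228982 to 24694828 expected counts, and the common biological coefficient of variation was 4.44%. The values below are counts scaled to library size (CPM), scaled between libraries by the trimmed mean of M-values (TMM), and levels are compared between groups and never between genes. As a check of the labels, *Insr* was 23.8 ± 1.32 CPM in DKO cells (SD, n = 3) and between 67.7 and 78.4 in the 4 receptor lines without insulin, although human receptor mRNA is counted here on mouse sequence. *Igf1r*, the other gene targeted by Cre, was 27.1 ± 2.06 CPM in DKO cells and between 30.1 and 35.1 in those lines. Because those lines were made from DKO cells, *Igf1r* does not check the labels. The paper reports that DKO cells expressed neither receptor as mRNA or protein. What the reads of *Insr* and *Igf1r* in DKO libraries stand for was not tested. Markers of cell type are given as sums over a list, and sums of different lists do not rank 1 cell type above another. Of 10 preadipocyte markers, 6 were tested, with *Pdgfra* and *Pdgfrb* carrying most of a summed level of 794 to 882 CPM across the 9 groups. Only 3 of 8 adipocyte markers and 1 of 6 brown fat markers passed the filter, their sums were 34.1 to 59.3 and 6.13 to 14.3 CPM, and *Adipoq* and *Ucp1* were at 0 in every group without insulin. Replicate 3 of JMO without insulin was the lowest of its 3 dishes for each of the 10 genes, and calls that rest on it are given below. Immune, endothelial, and muscle markers summed to at most 3.71, 13.3, and 4.86 CPM. In such bulk samples, fewer cells of a type and less RNA per cell cannot be told apart.

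In cells without insulin, *Acly*, *Acaca*, and *Fasn*, which act in turn to make palmitate, were lowest in JMO cells, higher in DKO cells, and higher still in IR, K1030R, and ∆CT cells. *Fasn*, fatty acid synthase, measured 793, 842 and 855 CPM in the 3 DKO libraries, 635, 636 and 593 in JMO, 938, 919 and 899 in IR, 1050.3, 977 and 1013 in ∆CT, and 1047, 1095 and 1078 in K1030R. Every JMO library was thus below every DKO library, and every IR, K1030R, and ∆CT library was above them. *Acly*, the ATP citrate lyase that supplies cytosolic acetyl-CoA, measured 579, 584 and 603 CPM in DKO, 557, 556 and 518 in JMO, 691, 678 and 713 in IR, 781, 776 and 776 in ∆CT, and 806, 843 and 848 in K1030R cells. Again none of the JMO libraries reached the DKO range, and the IR libraries lay between those of DKO and those of the other 2 high lines. *Acaca*, acetyl-CoA carboxylase 1, was 236, 248 and 241 CPM in DKO, 217, 217 and 211 in JMO, 291, 286 and 300.3 in IR, 300.0, 300.5 and 309.8 in ∆CT, and 318, 314 and 299.8 in K1030R cells. The 3 high lines overlapped for *Acaca*, in contrast to *Acly*. *Me1*, the cytosolic malic enzyme that forms NADPH, was 142, 135 and 136 CPM in DKO, 148, 146 and 139 in JMO, 157, 155 and 158 in IR, 169, 186 and 165 in ∆CT, and 172, 170.5 and 175 in K1030R. Its lines lay closest together, and its JMO and DKO libraries overlapped.

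**Figure D1:**
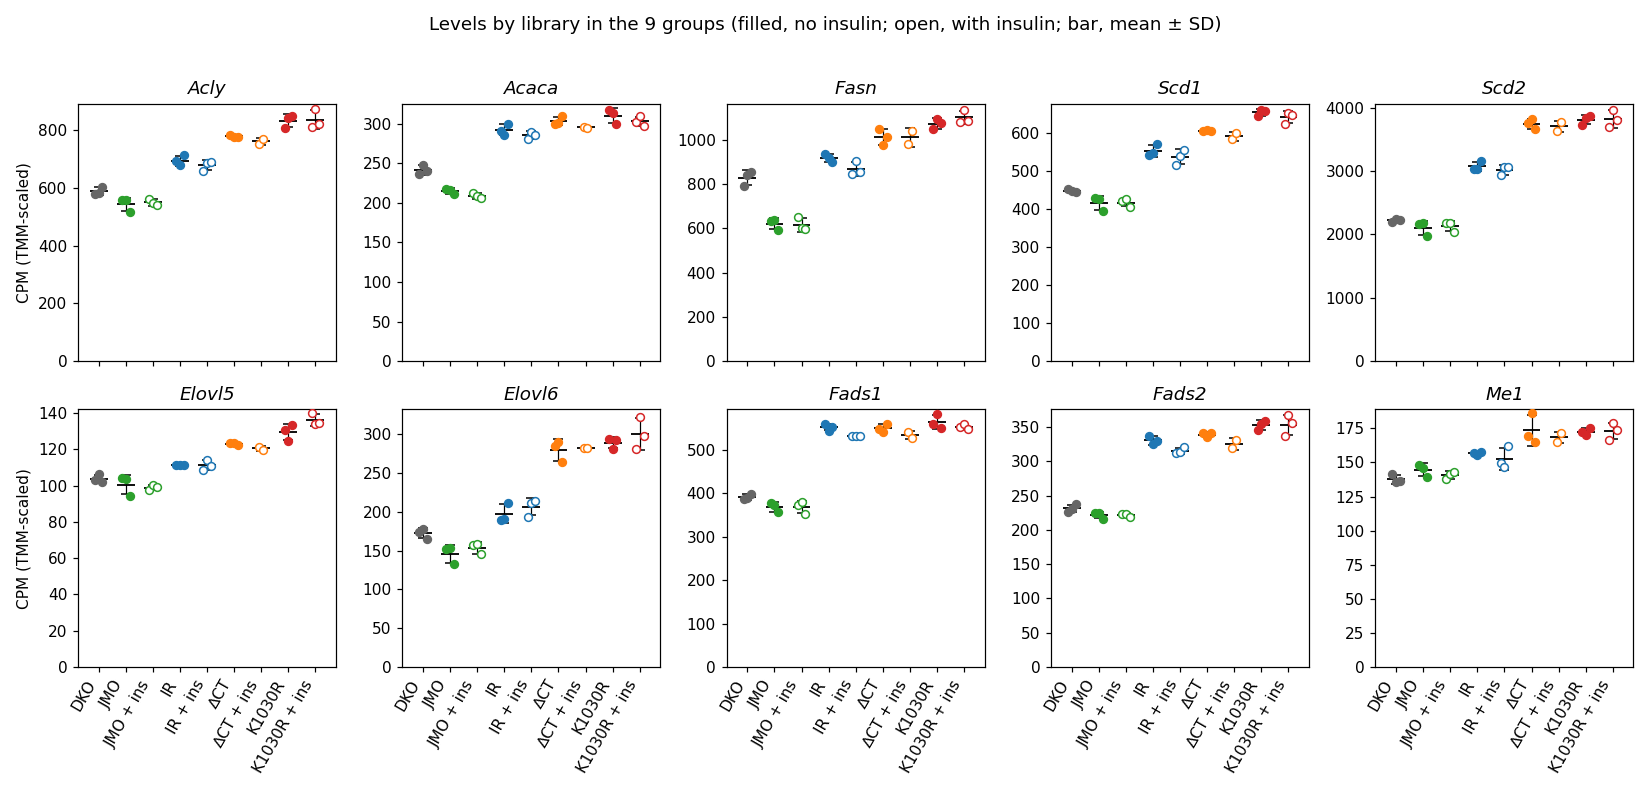
Level of each of the 10 genes (y axis, TMM-scaled CPM from 0) in every library of the 9 groups (x axis). Filled points are libraries without insulin, open points are libraries with insulin, and horizontal and vertical bars give the mean and SD. DKO and JMO libraries sit at the left and low in each panel. Open and filled points of a line lie near each other, though for some genes their ranges do not overlap.

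The desaturases were likewise higher in IR, K1030R, and ∆CT cells than in DKO and JMO cells. *Scd2*, a stearoyl-CoA desaturase that puts the Δ9 double bond into palmitate and stearate, measured 2200.4, 2238 and 2227 CPM in DKO cells, 2157, 2182 and 1974 in JMO, 3039.5, 3035 and 3154 in IR, 3762, 3818 and 3659 in ∆CT, and 3733, 3833 and 3873 in K1030R. The IR libraries stood clear of both the low and the higher lines, and K1030R and ∆CT overlapped. *Scd1*, the isoform best known in fat and liver, measured 452, 447 and 443 CPM in DKO, 428, 425 and 395 in JMO, 541, 547 and 570.1 in IR, 606, 608 and 604 in ∆CT, and 644, 661 and 658 in K1030R. Here the JMO libraries all fell below those of DKO, and the K1030R libraries all lay above those of ∆CT. *Fads1*, the Δ5 desaturase of polyunsaturated fatty acid synthesis, measured 386, 389 and 398 CPM in DKO, 377, 374 and 356 in JMO, 560.3, 544 and 554 in IR, 548, 542 and 560.4 in ∆CT, and 561, 582 and 551 in K1030R. *Fads2*, the Δ6 desaturase that acts before it, measured 226, 231 and 237 CPM in DKO, 224, 225 and 216 in JMO, 337, 325 and 329.8 in IR, 341, 335 and 341 in ∆CT, and 345, 355 and 359 in K1030R. For both *Fads* genes the IR libraries were near those of K1030R and ∆CT, unlike *Scd2*.

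Of the 2 elongases, *Elovl6* varied more between lines than *Elovl5*. *Elovl6*, which extends palmitate to stearate, measured 174, 178 and 165 CPM in DKO, 152, 153 and 133 in JMO, 189.7, 191 and 212 in IR, 285, 290.2 and 264 in ∆CT, and 294, 281 and 292 in K1030R cells. Its K1030R and ∆CT libraries were all above 264 CPM and its IR libraries all below 212, while replicate 3 of JMO was the lowest library. *Elovl5*, an elongase of polyunsaturated fatty acids, measured 103, 106 and 102 CPM in DKO, 104, 103 and 94.3 in JMO, 111, 111 and 111 in IR, 124, 123 and 122 in ∆CT, and 131, 125 and 134 in K1030R. Its DKO and JMO libraries overlapped.

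The first question was whether returning a receptor to DKO cells moved these genes. All 10 were higher in IR than in DKO cells (quasi-likelihood test in edgeR, adjusted p below 0.05 by Benjamini and Hochberg), against 25.6% of all tested genes called higher and 24.1% called lower. The differences ran from 0.10 for *Elovl5* to 0.52 for *Fads2* on the log2 scale, with a median of 0.26. *Fads2* rose by 0.52 ± 0.031 (SE, adjusted p = 7.09e-16), *Fads1* by 0.50 ± 0.030 (adjusted p = 5.79e-16), *Scd2* by 0.47 ± 0.033 (adjusted p = 4.47e-14), and *Fasn* by 0.15 ± 0.037 (adjusted p = 0.00134). The polyunsaturated and Δ9 desaturases thus had the largest differences between IR and DKO cells, and *Elovl5*, *Fasn*, *Me1* and *Elovl6* the smallest. The call for *Elovl5* was lost without DKO replicate 3 (0.09, adjusted p = 0.0620) and with DESeq2 (adjusted p = 0.0550), and that for *Elovl6* was lost without IR replicate 3 (0.14, adjusted p = 0.0607).

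All 10 genes were also higher in K1030R than in DKO cells (21.2% of tested genes higher, 20.4% lower) and in ∆CT than in DKO cells (23.4% higher, 22.9% lower). The log2 differences were 0.32 to 0.78 with a median of 0.51 in K1030R, and 0.25 to 0.75 with a median of 0.42 in ∆CT. These 3 comparisons share the DKO libraries. *Scd2* was 1.72-fold higher in K1030R and 1.69-fold higher in ∆CT than in DKO cells, and *Elovl6* was 1.68-fold and 1.62-fold higher. When the test asked for a change beyond 1.5-fold, *Scd2* and *Elovl6* passed in K1030R (adjusted p = 4.16e-06 and 0.0244, 2 of 10 against 5.29% of tested genes), *Scd2* alone passed in ∆CT (adjusted p = 3.03e-05, 1 of 10 against 6.29%), and none of the 10 passed in IR (6.89%). The *Elovl6* call in K1030R was lost without DKO replicate 3 or K1030R replicate 1 or 3, each leaving 1 of 10.

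JMO cells, whose receptor lacks both the kinase domain and the C-terminus, gave no such rise. Of the 10 genes, 6 were lower in JMO than in DKO cells and none was higher, against 17.4% and 16.9% of tested genes. *Fasn* fell by most, to 0.749 of its DKO level (log2 difference -0.42 ± 0.038, adjusted p = 6.59e-11), followed by *Elovl6* (-0.24 ± 0.060, adjusted p = 0.00318) and *Acaca* (-0.17 ± 0.031, adjusted p = 4.05e-05). *Acly* (-0.11, adjusted p = 0.00586), *Scd1* (-0.10, adjusted p = 0.0110), and *Fads1* (-0.08, adjusted p = 0.0297) were lower by less. *Scd2*, *Elovl5*, *Fads2*, and *Me1* did not pass the test, with 95% intervals of -0.15 to -0.01, -0.11 to 0.03, -0.13 to 0.00, and -0.01 to 0.15. None of the 10 passed beyond 1.5-fold (2.11% of tested genes). For any change, 7 had an unadjusted p under 0.05, and the share of tested genes at that threshold was not counted. The smaller falls rested on JMO replicate 3: without it *Acly* (-0.08, adjusted p = 0.0850), *Scd1* (-0.07, adjusted p = 0.146), and *Fads1* (-0.06, adjusted p = 0.206) lost their calls, leaving *Fasn*, *Elovl6*, and *Acaca*. The *Fads1* call was also lost without DKO replicate 2 (adjusted p = 0.0509) or 3 (adjusted p = 0.137) and with no filter on low counts (adjusted p = 0.0751). With DKO, JMO, and the other libraries fitted with the replicate block, *Scd2* was called lower as well (adjusted p = 0.0432), for 7 of 10, and it was also called with RLE size factors (adjusted p = 0.0487), DESeq2 (adjusted p = 0.0477), or no filter (adjusted p = 0.0405).

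Markers of cell state also differed from DKO cells. Of the 6 tested preadipocyte markers, 2 were higher and 4 lower in IR (median log2 difference -0.43), 1 higher and 3 lower in K1030R (-0.02), and 2 higher and 2 lower in both ∆CT (-0.02) and JMO (-0.07). Of the 3 tested adipocyte markers, *Lpl*, the lipoprotein lipase, was higher in IR (0.34), K1030R (0.49), ∆CT (0.21), and JMO (0.92), and the fatty acid carrier *Fabp4* was lower in the first 3 of these (-1.79 in IR to -0.85 in K1030R) and higher in JMO (0.83). The third, the factor gene *Cebpa*, was higher in K1030R (0.51) and ∆CT (0.48) and did not pass in IR (0.10) or JMO (-0.04). The tested brown fat marker *Ppargc1a* was higher in all 4 lines, by 0.66 to 1.09. The part of these markers in the differences of the 10 genes was not tested.

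**Figure D2:**
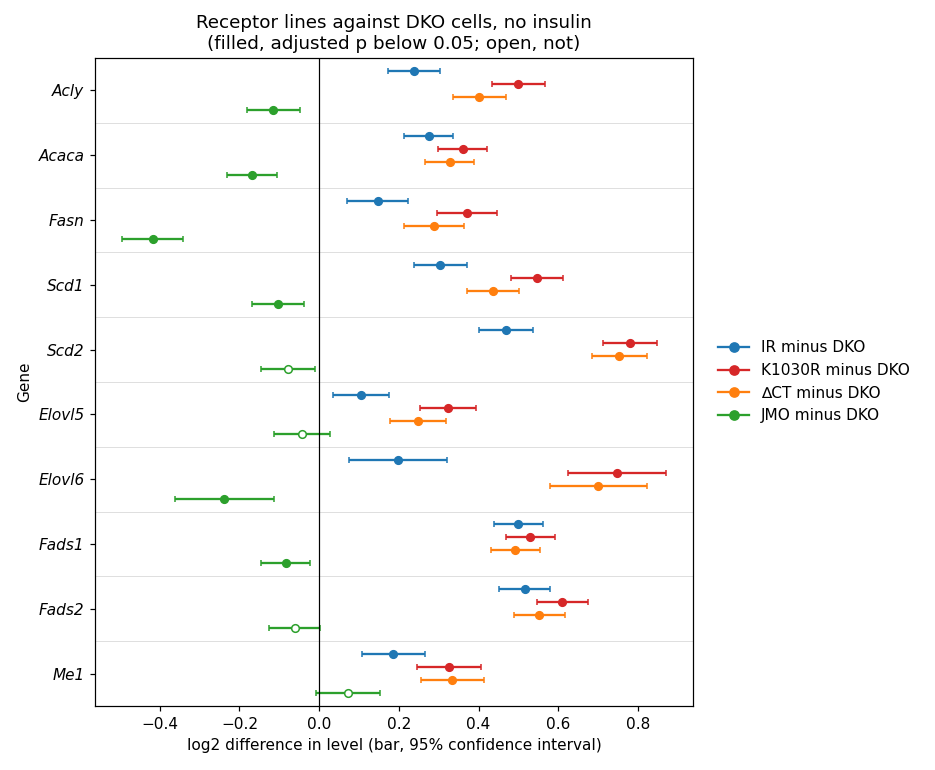
Difference of each receptor line from DKO cells without insulin (x axis, log2 difference with its 95% confidence interval) for the 10 genes (y axis), from edgeR's quasi-likelihood fit. Filled points have an adjusted p below 0.05. IR, K1030R, and ∆CT lie to the right of 0 for all 10 genes, and JMO lies near 0 or to its left, with *Fasn* at -0.42.

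Against JMO cells, which carry the same extracellular domain, all 10 genes were higher in IR (21.8% of tested genes higher, 20.7% lower), in K1030R (18.0% and 17.4%), and in ∆CT (19.3% and 19.5%). The log2 differences were 0.12 to 0.58 in IR, 0.25 to 0.99 in K1030R, and 0.26 to 0.94 in ∆CT, with *Me1* at the low end each time. *Elovl6* was 1.98-fold higher in K1030R than in JMO cells (0.99 ± 0.059, adjusted p = 3.62e-12) and *Fasn* 1.73-fold (0.79 ± 0.038, adjusted p = 2.36e-18). Beyond 1.5-fold, *Elovl6*, *Scd2*, *Fasn*, and *Fads2* passed in K1030R (4 of 10 against 3.64%), *Elovl6*, *Scd2*, and *Fasn* passed in ∆CT (3 of 10 against 4.50%), and none passed in IR (4.59%). The call of *Me1* for IR was lost without JMO replicate 3 (0.09, adjusted p = 0.116). The contrast of the mean of IR, K1030R, and ∆CT with the mean of DKO and JMO, the lines with and without the rest of the intracellular domain, put all 10 genes higher by 0.25 to 0.71 (median 0.48), where 26.7% of tested genes were higher and 25.6% lower.

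The kinase-dead receptor was then set against the normal one. Of these 2 lines, K1030R had the higher levels: 9 of 10 genes were higher in K1030R than in IR cells and none was lower, against 13.9% and 16.3% of tested genes. *Elovl6* had the largest difference, 1.46-fold (0.55 ± 0.058, adjusted p = 1.41e-07), then *Scd2* (0.31 ± 0.033, adjusted p = 5.52e-09), *Acly* (0.26 ± 0.032, adjusted p = 9.39e-08), and *Scd1* (0.24 ± 0.032, adjusted p = 3.07e-07). *Fasn* and *Elovl5* were each 0.22 higher and *Me1* 0.14. *Fads1* did not pass (0.03, 95% interval -0.03 to 0.09, adjusted p = 0.503). The calls of *Acaca* (0.09, adjusted p = 0.0299, with overlapping libraries) and *Fads2* (0.09, adjusted p = 0.0181) were each lost when certain single libraries were left out: IR or K1030R replicate 1 or 2 for *Acaca* (adjusted p = 0.0780 to 0.148), and IR replicate 2 (adjusted p = 0.0859) or K1030R replicate 3 (adjusted p = 0.0882) for *Fads2*. With no filter on low counts both calls were lost (adjusted p = 0.127 and 0.0675), and that of *Acaca* also with only the groups compared (adjusted p = 0.0524). None of the 10 differed beyond 1.5-fold (1.04% of tested genes).

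∆CT cells also stood above IR cells, with 7 of 10 genes higher and none lower (11.2% and 14.8% of tested genes) and none beyond 1.5-fold (0.708%). *Elovl6* was 1.42-fold higher (0.50 ± 0.058, adjusted p = 7.34e-07), *Scd2* 1.22-fold (0.28 ± 0.033, adjusted p = 4.86e-08), and *Acly* 1.12-fold (0.16 ± 0.032, adjusted p = 0.000194), and *Fasn*, *Scd1*, *Elovl5*, and *Me1* were higher by 0.13 to 0.15. The call of *Me1* was lost without ∆CT replicate 2 (0.09, adjusted p = 0.0884). *Acaca* (-0.01 to 0.11), *Fads1* (-0.07 to 0.05), and *Fads2* (-0.03 to 0.10) did not pass, with the 95% intervals given. Between ∆CT and K1030R cells, 1.49% of tested genes were higher in ∆CT and 1.95% lower, and of the 10 genes *Scd1* alone was called (-0.11, adjusted p = 0.0449), a call that was lost in 18 of 26 fits that each left out a library. The K1030R and ∆CT comparisons share the IR libraries. Markers of dividing cells moved alongside: the summed level of 8 such genes was 2007 CPM in IR, 2479 in K1030R, 2435 in ∆CT, 2267 in DKO, and 2250 in JMO cells, and 6 of 8 were higher than in IR cells in both K1030R (median log2 difference 0.39) and ∆CT (0.38). In IR against DKO cells, where the 10 genes were higher, 6 of these 8 markers were lower and 2 higher (median -0.23). Against DKO cells, 5 were higher and 1 lower in K1030R, 4 higher and 1 lower in ∆CT, and 1 higher and 1 lower in JMO. Of the other markers, all 3 tested for adipocytes were higher in K1030R than in IR cells and 1 of 3 in ∆CT (none lower), preadipocyte markers were 2 higher and 1 lower of 6 in K1030R and 2 higher and 2 lower in ∆CT, and *Ppargc1a* was lower in both (-0.44 and -0.42). The part of these markers in the results was not tested.

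**Figure D3:**
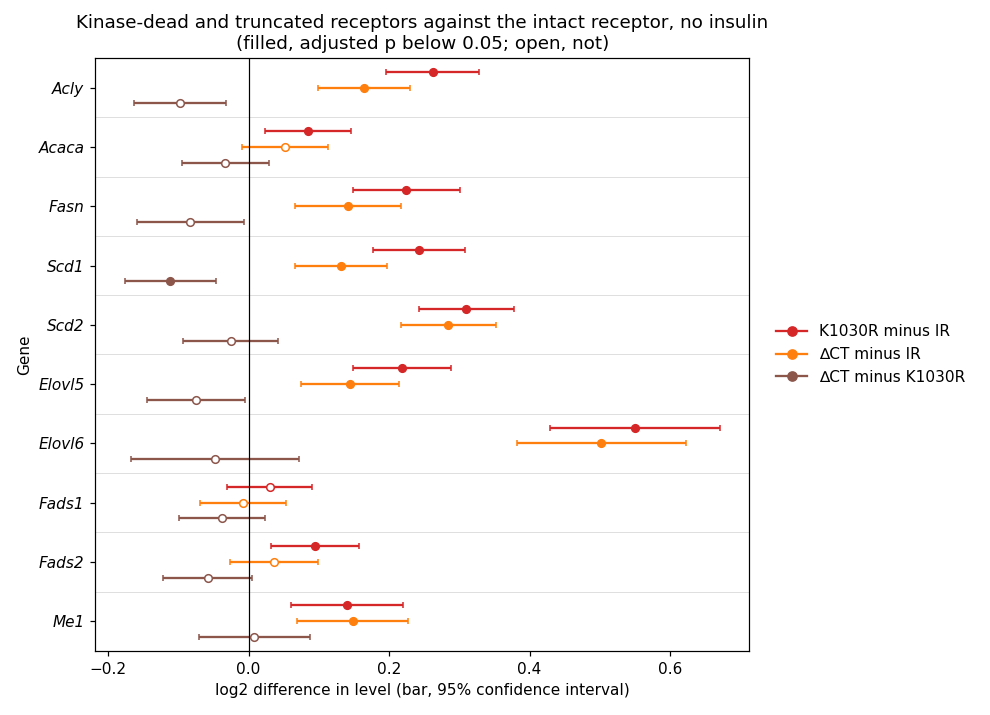
Difference of K1030R and ∆CT cells from IR cells, and of ∆CT from K1030R cells, without insulin (x axis, log2 difference with its 95% confidence interval) for the 10 genes (y axis). Filled points have an adjusted p below 0.05. *Elovl6* is farthest from 0 in both comparisons with IR, at 0.55 and 0.50, and *Fads1* is at 0.03 and -0.01.

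The order of the mean levels without insulin was K1030R, ∆CT, IR, DKO, JMO for 8 of the 10 genes. In *Fads1*, IR and ∆CT were exchanged, a pair that did not differ beyond their spread, and in *Me1* the order was ∆CT, K1030R, IR, JMO, DKO, where neither the top pair nor the bottom pair differed. K1030R and ∆CT, next to each other for the other 9 genes, differed for *Scd1* only, and IR and the line below it differed for every gene but *Fads1*, where that line was ∆CT. The ratio of the highest to the lowest group mean was 1.98 for *Elovl6*, 1.81 for *Scd2*, 1.73 for *Fasn*, 1.59 for *Fads2*, 1.57 for *Scd1*, 1.53 for *Acly* and *Fads1*, 1.44 for *Acaca*, 1.29 for *Elovl5*, and 1.26 for *Me1*. With insulin, the 4 receptor lines stood in the order K1030R, ∆CT, IR, JMO for all 10 genes.

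The same comparisons were made in the libraries given insulin, which are other dishes of the receptor lines. The DKO libraries were the same ones as before, without insulin. In comparisons with DKO, only the receptor line was thus other dishes, and it also differed by insulin. All 10 genes were again higher in K1030R and ∆CT than in DKO, and in all 3 lines than in JMO, but 9 of 10 were higher in IR than in DKO, because *Fasn* no longer passed (0.07, adjusted p = 0.140). The counts were 6 lower of 10 for JMO against DKO, 9 higher for K1030R against IR, and 7 higher for ∆CT against IR, as without insulin. For ∆CT against K1030R the count was 4, where it was 1 without insulin. The shares of all tested genes called in these comparisons with insulin were not counted.

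Insulin for 15 min moved none of the 10 genes past the threshold in any line, by edgeR's quasi-likelihood test. In IR cells 1.87% of all tested genes were called, in K1030R 0.156%, in ∆CT 1.01%, and in JMO 0.364%. The differences between insulin and no insulin were -0.08 to 0.07 on the log2 scale in IR cells (95% intervals of the 10 genes within -0.16 to 0.19), -0.03 to 0.07 in K1030R (within -0.10 to 0.18), -0.06 to 0.01 in ∆CT (within -0.13 to 0.15), and -0.04 to 0.07 in JMO (within -0.12 to 0.20). At an unadjusted p under 0.05 stood 2 genes in IR, *Fads2* (-0.07, adjusted p = 0.288) and *Fasn* (-0.08, adjusted p = 0.312), 1 in K1030R, *Elovl5* (0.07, adjusted p = 0.808), and 0 in ∆CT and JMO. DESeq2 and limma voom called 0 of 10 in each line as well. The ranges with and without insulin did not overlap for 2 of the 10 genes in IR (*Fads1* and *Fads2*, lower with insulin). The same held for 1 in K1030R (*Elovl5*, higher), 6 in ∆CT (all lower, n = 2 with insulin), and 0 in JMO. The shares of all tested genes without overlap, or at an unadjusted p under 0.05, were not counted. *Fasn* was 848, 906 and 854 CPM in the IR libraries with insulin, which overlapped those without. It was 1081, 1137 and 1087 in K1030R, 982 and 1040.3 in ∆CT, and 651, 600.0 and 596 in JMO with insulin, again within or next to the ranges without. The insulin effects were also compared with that of IR cells: 0 of 10 were called for K1030R (1 at an unadjusted p under 0.05, *Fasn*, 0.12), for ∆CT (0), and for JMO (0), with 0.370%, 0.00649%, and 0.279% of tested genes called, and DESeq2 and limma voom called 0 in each.

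**Figure D4:**
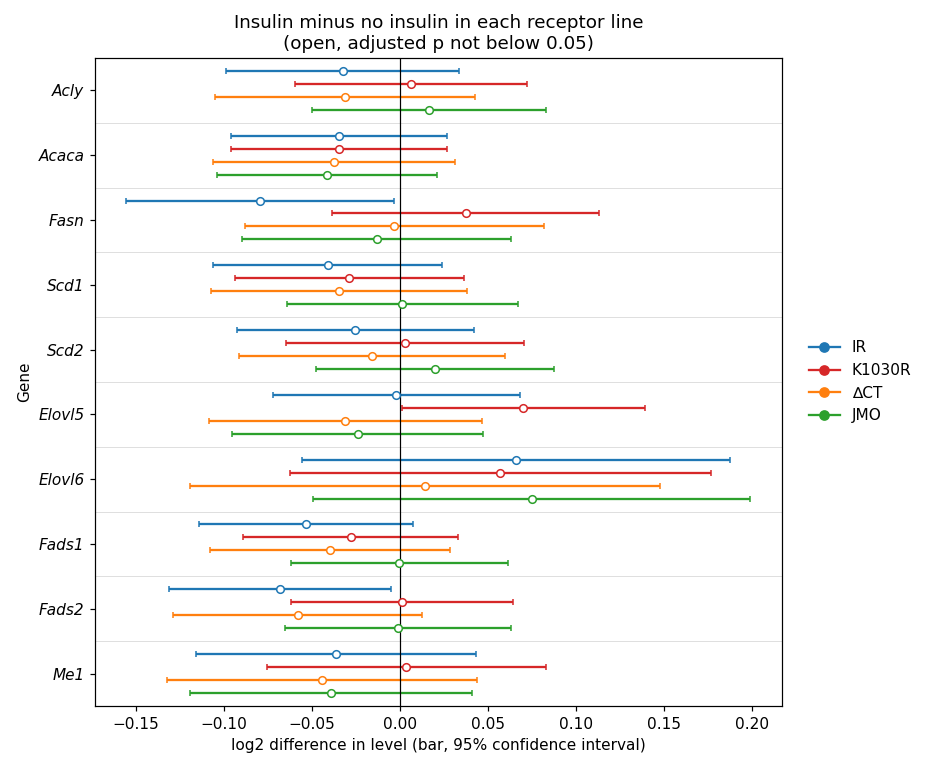
Difference between cells given 100 nM insulin for 15 min and cells without insulin in each of the 4 receptor lines (x axis, log2 difference with its 95% confidence interval) for the 10 genes (y axis). Open points have an adjusted p not below 0.05, which holds for all 40 differences drawn, and all lie between -0.08 and 0.07.

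The 10 genes moved together over the 9 group means, as a description of 9 points that share libraries, scaling, and lines. Pearson's r over the 45 pairs was 0.851 (*Elovl5* and *Fads1*) to 0.996 (*Acly* and *Scd1*), with a median of 0.954. No such range of r was computed for other sets of tested genes. The neighbours *Fads1* and *Fads2* had r = 0.994. By the F statistic over all 9 groups, *Scd2* (239), *Fads2* (170), and *Fads1* (157) stood farthest above the spread between dishes, and the genes whose group means were most like theirs were looked up among all tested genes. *Scd2* was most like *Nrp1*, *Ehd2*, and *Mvk* (r = 0.995 for each, 9 group means), the last the mevalonate kinase of cholesterol synthesis. *Fads2* was most like *Hspa9* (0.997), *Fads1* (0.994), and *S100a10* (0.991), and *Fads1* was most like *Cbx1* and *Hspa9* (0.996 for each) and *Fads2*.

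Genes on either side of the 10 enzymes were counted in the contrast of IR, K1030R, and ∆CT with DKO and JMO. Of 6 tested genes listed for acetyl-CoA and malonyl-CoA metabolism, 4 were higher and none lower (median log2 difference 0.23). Among the higher were *Aacs* (0.57), which activates acetoacetate, *Acss2* (0.45), which activates acetate, and the citrate carrier *Slc25a1* (0.34). Without JMO replicate 3, 1 was lower. Of 9 genes listed for NADPH supply and the pentose phosphate pathway, 7 were higher and 1 lower (median 0.20). The largest differences were those of the malic enzyme *Me3* (0.59) and the isocitrate dehydrogenases *Idh2* (0.53) and *Idh1* (0.50). The lower call was lost with no filter on low counts, in the insulin libraries, and without DKO or JMO replicate 2. Both lists thus had most of their tested genes higher, while the 10 enzymes were all higher. The former list also holds *Mlycd* and *Cs*, and the latter *Pgls*, *Tkt*, and *Taldo1*, so these counts do not measure supply of carbon or reductant. The other genes of elongation and desaturation were mixed: 7 of 18 were higher and 5 lower (median 0.13), with *Hacd4* (1.03) and *Scd4* (0.85) highest at levels of a few CPM, and *Tecr*, the reductase of the last step of elongation, at 0.51. Of 13 genes that activate and esterify fatty acids, 4 were higher and 5 lower (median 0.00), with *Acsl3* (0.85) and *Lpin1* (0.69) up and *Dgat2* (-0.53) down. Mitochondrial fatty acid synthesis had 2 of 5 higher and none lower (median 0.13): *Cbr4* (0.20) and *Oxsm* (0.12). The *Oxsm* call was lost with DESeq2 (adjusted p = 0.0920), in the insulin libraries (adjusted p = 0.263), and without DKO replicate 3, IR replicate 1 or 3, K1030R replicate 1, ∆CT replicate 3, or JMO replicate 2 or 3 (adjusted p = 0.0510 to 0.0743), and 1 gene of the 5 was lower in the insulin libraries. Fatty acid oxidation, the opposite process, had 9 of 15 higher and 2 lower (median 0.13), including the acyl-CoA dehydrogenases *Acads* (0.41) and *Acadm* (0.31). *Ppara*, the receptor that drives oxidation genes, was 0.59 higher at about 1 CPM (adjusted p = 0.0233), and its call was lost with DESeq2 (adjusted p = 0.0571) and limma voom (adjusted p = 0.0533), and without DKO replicate 1 or 2, K1030R replicate 2, ∆CT replicate 3, or JMO replicate 1 (adjusted p = 0.0549 to 0.0732). These shares stand against the 26.7% higher and 25.6% lower of all tested genes.

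The regulators of the pathway did not all move with it. *Srebf1*, which encodes SREBP-1a and SREBP-1c, was 59.9 ± 2.54 CPM in DKO (SD, n = 3), 59.8 ± 1.70 in JMO, 68.5 ± 5.49 in IR, 68.4 ± 3.27 in ∆CT, and 65.0 ± 1.27 in K1030R cells. It was higher in the contrast of the 3 lines with DKO and JMO (0.17 ± 0.037, adjusted p = 0.000287) and in IR and ∆CT against DKO (0.19 and 0.19), and it did not pass in K1030R against DKO (0.12, adjusted p = 0.112). In the insulin libraries the contrast was 0.06 (adjusted p = 0.185). *Srebf2*, which encodes the SREBP best known for cholesterol synthesis, was 0.24 higher in the contrast and fell by 0.15 in JMO against DKO (adjusted p = 0.00469). *Mid1ip1*, whose product promotes acetyl-CoA carboxylase polymerization, was 0.46 higher. The liver X receptor gene *Nr1h2* gave 0.01 (adjusted p = 0.798), and *Nr1h3*, its partner in the family, was lower (-1.20), with 2.18 CPM in DKO and 0.815 in IR cells. *Mlxipl*, the carbohydrate response factor, did not pass the filter. Over the 13 tested genes of transcriptional control, 7 were higher, 2 were lower, and 4 were not called (median 0.06), and in the insulin libraries 4 were higher.

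*Insig1*, which holds SREBP in the endoplasmic reticulum and is itself an SREBP target, had the largest fall in JMO cells of the regulators described. It was 516 ± 4.97 CPM in DKO, 304 ± 9.78 in JMO, 565 ± 21.4 in IR, 679 ± 27.6 in ∆CT, and 642 ± 18.5 in K1030R cells (SD, n = 3). JMO differed from DKO by -0.76 ± 0.037 on the log2 scale (adjusted p = 1.06e-17), and K1030R and ∆CT were 0.18 and 0.26 above IR, so the order of the lines was close to that of the 10 enzymes. Unlike any of the 10 enzymes, it passed the test for 15 min of insulin, rising to 715 ± 36.1 CPM in IR (0.34 ± 0.036, adjusted p = 3.15e-08) and 809 ± 26.3 in ∆CT (n = 2, 0.25 ± 0.040, adjusted p = 0.000113). It was 650 ± 14.3 in K1030R (0.02, adjusted p = 0.991) and 329 ± 9.27 in JMO with insulin (0.12, adjusted p = 0.286). Of the genes in these 7 lists, the only other one that insulin moved past the threshold was *Pgls*, of the pentose phosphate pathway, lower in ∆CT (-0.45, adjusted p = 0.0335), named here after its value was seen.

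**Figure D5:**
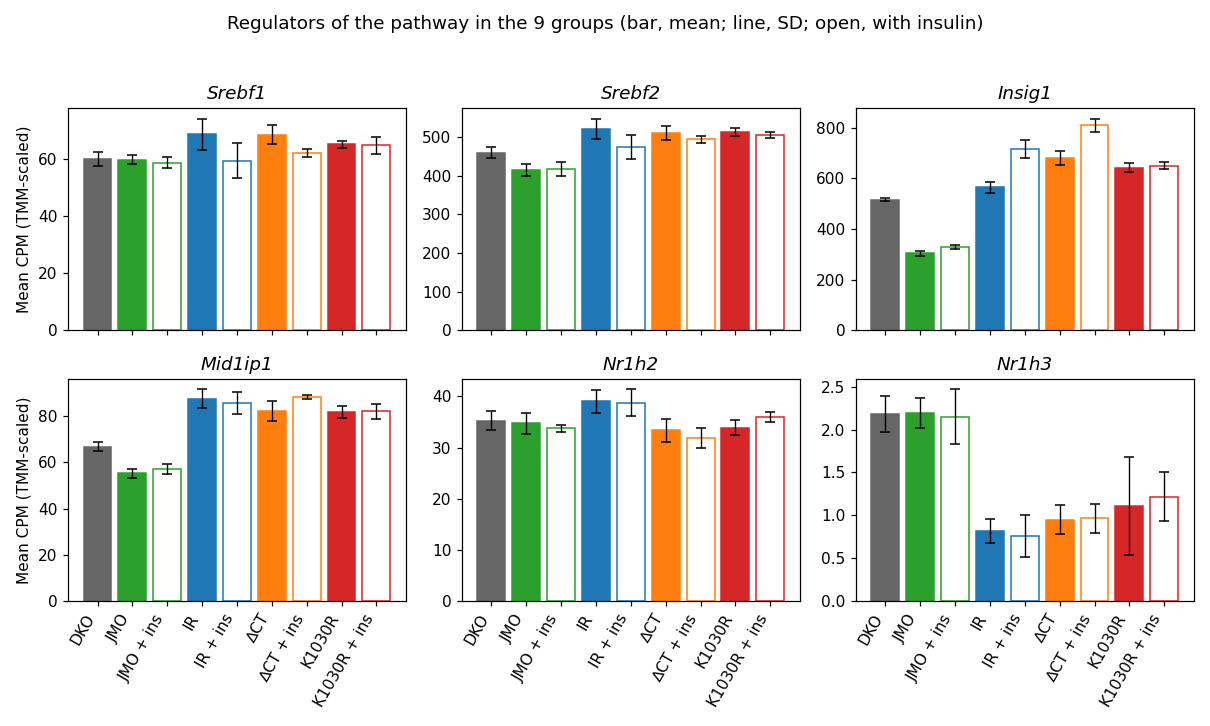
Mean level of 6 regulators of the pathway (y axis, TMM-scaled CPM from 0) in the 9 groups (x axis), with lines for the SD and open bars for cells given insulin. *Insig1* is lowest in JMO (304 CPM) and higher with insulin in IR and ∆CT, whereas *Srebf1* is at 59.9 CPM in DKO and 68.5 in IR.

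Since the 10 genes moved together, the DNA before their start sites was read for letters that factors of lipid synthesis are known to bind. Windows of 250 bases before and 50 after the start site (RefSeq, GRCm38.p6) matched 7 of the 10 genes in 8 windows, and *Scd1*, *Scd2*, and *Fads1* had none in the table used. The only *Acaca* window (chr11:84195188-84195487) and 1 of the *Me1* windows (chr9:86687228-86687527) lie inside those genes, at internal start sites. Nearly all of the *Fads2* window (chr19:10101454-10101753) also lies inside its gene, which ends at 10101746. Both strands were searched, and matches of different motifs were allowed to overlap. The core of the sterol regulatory element, TCACNCCAC, was in 0 of 8 windows and in 1.24% of all 32851 windows of this length. The E-box, CACGTG, which reads the same on both strands, was in 1 of 8 windows and in 7.15% of all. The motif CCAAT was in 4 of 8 windows and in 37.4% of all. The GC box, GGGCGG, was in 3 of 8 windows and in 35.7% of all. A match is a description of letters, and its absence says only that they are not in these windows. The 250 bases before the start of *Acly*, *Fasn*, and *Elovl5* are shown as examples that hold matches. The windows of *Acaca* and *Elovl6* held none of these motifs. Each stretch is on the strand of the gene (minus for *Acly* and *Fasn*, plus for *Elovl5*), with matches in capitals.
Acly, chr11:100528001-100528250: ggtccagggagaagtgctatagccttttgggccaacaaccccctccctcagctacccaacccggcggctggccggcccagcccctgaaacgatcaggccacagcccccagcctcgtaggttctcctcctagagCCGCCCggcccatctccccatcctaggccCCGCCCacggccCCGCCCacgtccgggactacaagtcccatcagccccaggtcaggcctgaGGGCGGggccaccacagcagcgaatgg
Fasn, chr11:120824548-120824797: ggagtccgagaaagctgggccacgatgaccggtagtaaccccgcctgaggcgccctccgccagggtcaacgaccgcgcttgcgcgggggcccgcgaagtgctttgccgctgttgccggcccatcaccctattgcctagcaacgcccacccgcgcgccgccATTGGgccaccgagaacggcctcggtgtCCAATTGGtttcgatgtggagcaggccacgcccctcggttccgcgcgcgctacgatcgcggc
Elovl5, chr9:77917115-77917364: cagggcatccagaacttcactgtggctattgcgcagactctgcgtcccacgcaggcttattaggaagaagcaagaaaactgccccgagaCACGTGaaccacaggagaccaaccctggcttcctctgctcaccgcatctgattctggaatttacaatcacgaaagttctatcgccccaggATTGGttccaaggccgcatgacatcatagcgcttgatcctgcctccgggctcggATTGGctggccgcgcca
In *Acly* the capitals are GC boxes, 4 of them on either strand, in a stretch of 68.8% G and C. In *Fasn* they are 3 matches of CCAAT or its reverse complement, of which the last 2 overlap, and the stretch has 69.2% G and C. In *Elovl5* the first capitals are the E-box and the others are 2 matches of the reverse complement of CCAAT, with 55.6% G and C. The level of *Acly* and *Fasn* in JMO was 0.924 and 0.749 of that in DKO, and that of *Elovl5* 0.971. The *Elovl5* difference did not pass the test, and the *Acly* call was lost without JMO replicate 3. Whether these letters bear on the levels was not tested.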

How the data were processed

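Per the authors' methods, polyadenylated mRNA was selected, stranded libraries were read from a single end, fastp removed adapters, kallisto quantified the reads on the mouse transcripts of Ensembl 98, and tximport gave values per gene. The authors deposited these expected counts per gene, neither filtered nor scaled to library size. Counts were rounded, and a CPM over 0.5 was required in 4 or more libraries. edgeR 4.0.16 (R 4.3.3) fitted a robust quasi-likelihood model with TMM factors and 1 mean per group to all 26 libraries. Calls use a Benjamini-Hochberg adjusted p below 0.05 over 15402 genes, and glmTreat for a minimum fold of 1.5. Alternatives used limma 3.58.1 and DESeq2 1.42.0. Scripts were tested on simulated data. Symbols and positions came from GENCODE M21 and promoters from RefSeq.

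The 10 genes and all lists were chosen with earlier results of these data known. The text names all 10 genes, up to 3 genes per list with the largest absolute difference in the contrast of IR, K1030R, and ∆CT with DKO and JMO, and 6 regulators. Replicate numbers did not pair libraries: deviations of 100 same-numbered pairs correlated at -0.108 to 0.0959 (median -0.00111).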

Additional observations from a re-analysis of the deposited data

Results flagged for a closer look

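The insulin effect on *Insig1* differed between K1030R and IR cells by a test of the difference itself. Its mean rose from 565 to 715 CPM in IR cells and was 642 without and 650 with insulin in K1030R cells, so that the effect in K1030R minus that in IR was -0.32 ± 0.051 on the log2 scale (SE, 3 dishes per group, edgeR's quasi-likelihood test, adjusted p = 0.000191). The same difference was -0.22 for JMO (adjusted p = 0.0501, and 0.00222 to 0.121 under the other settings and 0.0116 to 0.255 on leaving out a library) and -0.09 for ∆CT, neither of which passed the threshold in the fit reported.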

How the results depend on the processing

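Across the alternatives, the counts of called genes moved mostly where few were called. For ∆CT against K1030R, 1 of 10 was called, and 0 with relative log expression (RLE) size factors, with no filter on low counts, with only the groups compared, or with an adjusted p below 0.001, 4 in the insulin libraries, and 0 to 1 when each library was left out in turn. Beyond 1.5-fold, the 1 call for ∆CT against DKO became 2 with no filter or only the groups compared, and the 2 calls for K1030R against DKO became 1 with limma voom or DESeq2 and 1 to 2 on leaving out a library. For JMO against DKO, 6 became 2 at an adjusted p below 0.001 and 3 to 7 on leaving out a library, and for ∆CT against IR, 7 became 3 at an adjusted p below 0.001. With the replicate block, 7 of 10 were called for JMO against DKO in place of 6, and no other count changed. The direction turned only for differences near 0: *Fads1* in ∆CT against IR was -0.01, and 0.0018 with RLE, 0.0021 with the filter of 10 counts, 0.0016 with DESeq2, 0.0041 with only the groups compared, 0.0059 in the insulin libraries, and -0.0213 to 0.0075 on leaving out a library. *Elovl5* in JMO against DKO ranged from -0.0660 to 0.0033 (the latter without JMO replicate 3), and *Nr1h2* in the contrast of IR, K1030R, and ∆CT with DKO and JMO from -0.0093 to 0.0314. Adding the counts of the pseudogenes that share sequence with *Acaca* and *Me1* (0.648% and 7.50% of their own), an alternative chosen after seeing the data, changed no call. Each group had 3 dishes or fewer and library totals of 17228982 to 24694828 expected counts, which limit the precision.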
